A study of Mus musculus with 2 samples.

Results

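Described here are 10 genes of the reactive glial response and of gp130-STAT3 signalling in mouse lens RNA: Lcn2, Serpina3n, C3, Edn2, Gfap, Cebpd, Stat3, Socs3, Osmr and Cd44. They were chosen by name, with their ratios between the libraries already known, and all 10 are among the 21673 genes of the deposited table. The ratios of the members are therefore a description and support nothing by themselves. The series holds 2 libraries of mRNA from lenses of C57BL/6 mice at postnatal day 60, with 1 library for each genotype. Both genotypes carried 2 floxed Msx2 alleles (Msx2 fl/fl). The library called CKO came from Le-Cre+/- Msx2 fl/fl mice and the library called WT from Msx2 fl/fl mice without Cre, so the Le-Cre transgene differs between the libraries together with Msx2. Le-Cre is expressed under a lens and surface-ectoderm enhancer of Pax6, and no library of mice with Le-Cre and intact Msx2 was analysed here. The sources used here do not state how many animals went into each library.

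Cytokines of the interleukin 6 family, such as LIF, CNTF and oncostatin M, signal through the shared receptor chain gp130, which Il6st encodes. Receptor binding activates JAK kinases, which phosphorylate the transcription factor STAT3; STAT3 then induces its targets, among them Socs3, whose product inhibits the same receptors. In injured retina this pathway acts in Müller glia and astrocytes, which become reactive and make the filament protein GFAP and a set of secreted acute-phase proteins. Several of the members are also made outside glia: Lcn2 by epithelia and neutrophils, C3 by liver and many stromal cells, and Cd44 by most cell types.

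Reads assigned to genes, recovered from the deposited FPKM (fragments per kilobase of gene, scaled for library depth), numbered 17165504 in CKO and 20784737 in WT. Msx2 was at 0.0392 FPKM (3 reads) in CKO and 6.21 FPKM (311 reads) in WT. The lens label was checked with 12 fibre markers, led by the crystallin gene Cryaa at 85420 and 215436 FPKM, and 10 of them were lower in CKO by 2-fold or more. Xist, the RNA of the inactive X chromosome, had 16251 reads in CKO and 35 in WT, and the Y-linked Eif2s3y had 0 and 819. Sex-linked RNA thus differed between the libraries along with genotype, and these cannot be told apart. In bulk RNA, more cells of a type and more RNA per cell cannot be told apart either. As neither genotype was replicated, every ratio below compares 2 libraries with no replicate check. Intervals are exact 95% intervals of the read counts; reads are not independent molecules, so the intervals cover counting error only.

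In CKO, 7 of the 10 genes were higher by 2-fold or more, 2 lay within 2-fold and 1, Osmr, was below the minimum level. The 7 were Lcn2, Serpina3n, C3, Edn2, Gfap, Cebpd and Socs3, while Stat3 and Cd44 lay within 2-fold. Genes with an average of at least 1 FPKM across the 2 libraries counted as measured. A measured gene counted as higher or lower if its log2 ratio of FPKM + 1 reached 2-fold. By this rule 627 of 10757 measured genes were higher in CKO (5.83%) and 315 were lower (2.93%). Since the members were picked with this contrast in view, nothing is read from their count against that background. Of the 9 measured members, 4 were under 1 FPKM in WT and were measured only through their level in CKO. The median log2 ratio of the 9 was 3.23, and -0.016 over all measured genes.

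**Figure D1:**
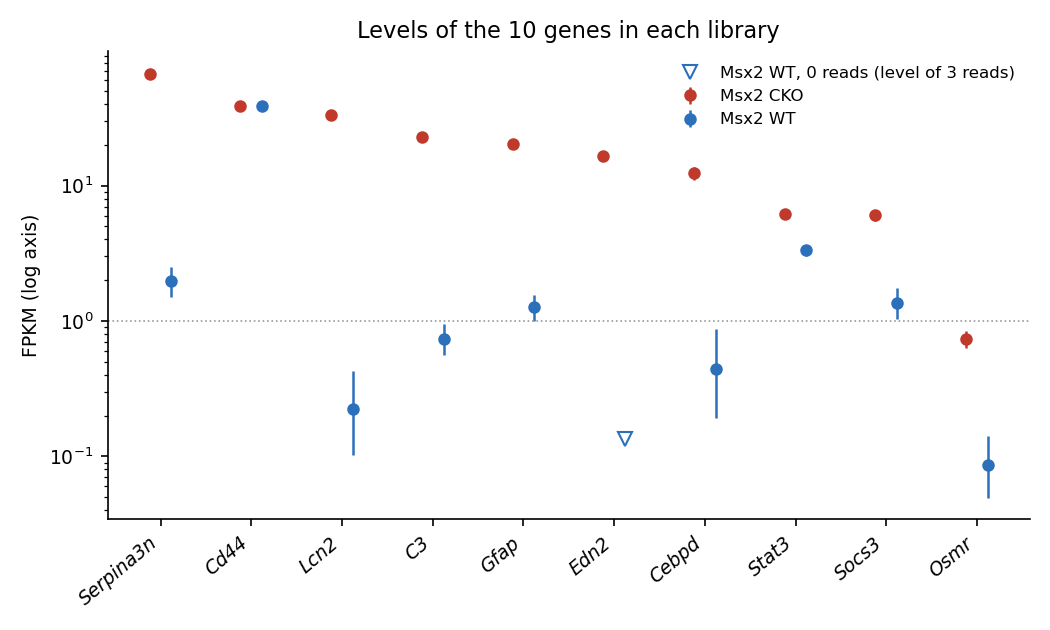
FPKM (log axis) of each gene in the CKO and WT libraries, 1 library each, with exact 95% Poisson intervals of the read counts; the open triangle marks 0 reads, drawn at the level of 3 reads, and the dotted line marks 1 FPKM. Serpina3n, Lcn2, C3, Gfap, Edn2 and Cebpd lay above 10 FPKM in CKO and below 2 FPKM in WT, whereas Cd44 lay at 38.5 and 39.0 FPKM.

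**Figure D2:**
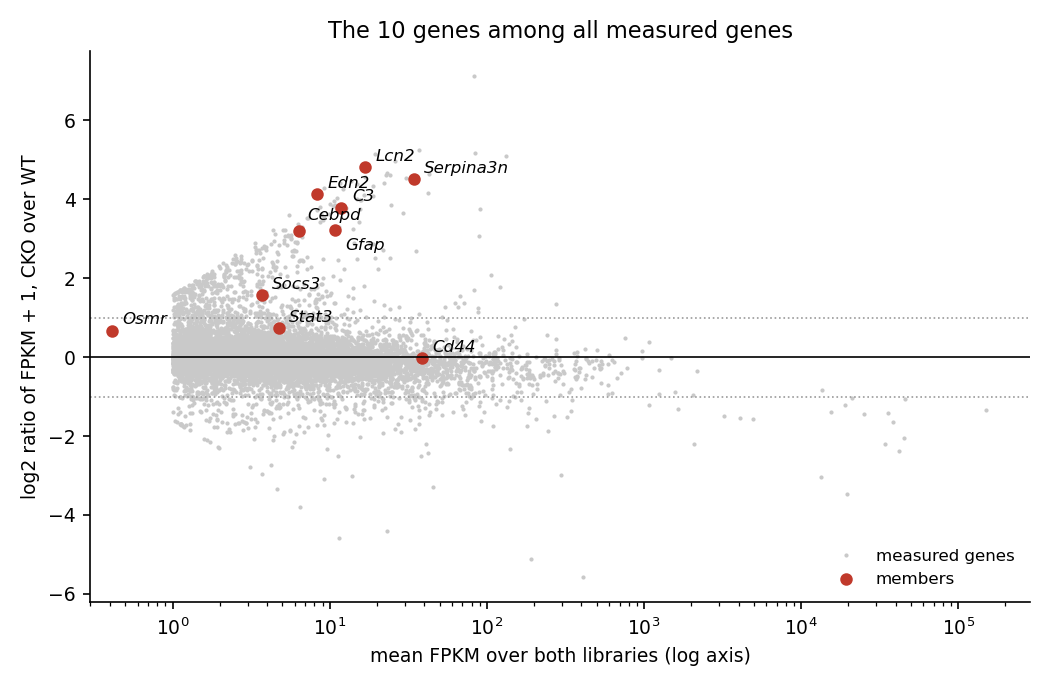
Log2 ratio of FPKM + 1 (CKO over WT) against mean FPKM over both libraries (log axis) for 10757 measured genes (grey) and the 10 members (red); dotted lines mark 2-fold. Lcn2 had the ratio ranked 7 from the highest, and Cd44 lay on the line of no difference with a log2 ratio of -0.02.

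Osmr, a receptor gene of the pathway, stood below 1 FPKM in both libraries, and Stat3 stood above it in both. Osmr encodes the oncostatin M receptor subunit that pairs with gp130. It lies on chromosome 15 from 6813577 to 6874969, minus strand (ENSMUSG00000022146). Its level was 0.731 FPKM in CKO (207 reads) and 0.0865 in WT (16 reads), a plain ratio of 8.45 (5.08 to 15.1). Its log2 ratio of FPKM + 1 was only 0.67, because the added 1 exceeds both levels, and it was 2.16 with 0.1 added. Stat3 lies on chromosome 11 from 100885098 to 100939540, minus strand (ENSMUSG00000004040). It was at 6.18 FPKM in CKO (1376 reads) and 3.32 in WT (483 reads), 1.86-fold higher (1.68 to 2.07), with a log2 ratio of 0.73. Its last exon overlaps that of Stat5a on the opposite strand by 72 bases, and the sources used here do not say whether strand was used in counting. Stat5a itself was at 0.714 and 0.900 FPKM.

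Around these genes, the rest of the signalling chain lay within 2-fold where it was measured. Of 9 gp130 family ligands in the table, 2 were measured and neither passed: Clcf1, at 1.60 FPKM in CKO and 1.08 in WT, and Ctf1, at 1.74 and 2.26. Lif, the ligand best known from injured photoreceptors and Müller cells, had 55 reads in CKO and 2 in WT, or 0.541 and 0.0301 FPKM, a ratio of 18.0 (4.74 to 152) at a level under the minimum. Cntf had 0 reads in CKO and 2 in WT. None of 4 measured receptor genes passed. The gp130 gene Il6st was at 9.17 and 8.23 FPKM, a ratio of 1.11 (1.04 to 1.19). The LIF receptor gene Lifr was at 2.85 and 1.94 FPKM, and the CNTF receptor gene Cntfr was at 4.63 and 8.55 FPKM, 1.85-fold lower in CKO (1.58 to 2.16). None of 7 measured JAK and STAT genes passed; Jak1 was at 5.71 and 5.84 FPKM. The median log2 ratios of the receptor list and of the JAK and STAT list were 0.13 and -0.03, beside -0.016 over all measured genes. Less the median of all measured genes, the JAK and STAT median was -0.01 as deposited and 0.05 with library totals, and the receptor median 0.14 and 0.17. With library totals, which raise every plain ratio by the same factor, 1 receptor gene and, of the JAK and STAT genes, Stat3 passed 2-fold. Under that scaling 2098 of all 10757 measured genes were higher.

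The feedback inhibitor Socs3 and the transcription factor gene Cebpd, both known STAT3 targets, were higher in CKO. Socs3 lies on chromosome 11 from 117966079 to 117970047, minus strand (ENSMUSG00000053113). It was at 6.01 FPKM in CKO (406 reads) and 1.36 in WT (60 reads), 4.42-fold higher (3.36 to 5.90). Of the 11 other measured inhibitors of JAK-STAT signalling none passed with the deposited scaling. The highest log2 ratio among them was 0.54, of Pias3, at 6.25 and 3.996 FPKM. With library totals 4 of the 12 passed, Socs3 included, and 2098 of all 10757 measured genes were higher. Cebpd encodes C/EBP delta, a factor of the acute-phase response. Its row spans 15887286 to 15888466 on the plus strand of chromosome 16 (ENSMUSG00000071637). The deposited table calls it a pseudogene of 1180 bases, whereas GENCODE release M21 has it as protein-coding with 3746 exonic bases, so reads from the longer end may not have been counted. Cebpd was at 12.3 FPKM in CKO (339 reads) and 0.444 in WT (8 reads), 27.7-fold higher (13.9 to 64.6). The other 4 measured genes of the C/EBP family list lay within 2-fold as deposited, while library totals gave 3 higher genes of the 5. Among these were Ddit3, which encodes the stress factor CHOP, at 10.4 and 5.81 FPKM, and Cebpb, named after its values were seen, at 3.04 and 1.92. By FPKM, Cebpd was the highest of the 5 measured genes of the list in CKO and the lowest in WT, a comparison that rests on its listed length.

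Known STAT3 target genes divided in the same libraries. The list holds 6 members, and of its 10 other measured genes 3 were higher, 7 lay within 2-fold and none was lower, with a median log2 ratio of 0.35. Members included, 7 of 15 genes were higher as deposited and 12 with library totals. Over all 10757 measured genes, 627 were higher as deposited and 2098 with library totals. Timp1, an inhibitor of matrix metalloproteinases, had levels of 6.79 FPKM (CKO) and 0.664 FPKM (WT) and was 10.2-fold higher (5.24 to 22.8). The immediate early genes Junb and Fos, which many stimuli other than STAT3 induce, were 6.80-fold (4.57 to 10.5) and 8.84-fold (5.04 to 16.9) higher. Bcl3, named after its values were seen, had 69 reads in CKO and 0 in WT. It was 15.0-fold higher if WT is set to 3 reads (the counting interval starts at 11.9). Its mean level was below the minimum. The survival gene Mcl1, at 26.8 and 21.2 FPKM, and Hif1a, at 23.3 and 36.4 FPKM, were the most abundant genes of the list outside the members and lay within 2-fold.

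The promoters of the members, those within 2-fold included, were searched for 2 motifs. RefSeq promoter sequences on GRCm38.p6, each 250 bases before to 50 after a start site, were found for 9 of the 10 members; Cebpd had no entry. The STAT motif TTCNNNGAA, which is its own reverse complement, was in 2 of the 9 and in 8.30% of 32851 mouse promoters of the same length. The C/EBP motif TTGCNNAA, read on both strands, was in 2 of the 9 and in 10.8% of all promoters. No window of a member held both motifs. The 4 sequences with a match are shown because they carry the letters described; matches are in capitals, all are minus-strand sequences read 5′ to 3′, and each stops before the first base that GENCODE M21 places in an untranslated exon, unless the match itself reaches further. In Gfap the STAT match starts 2 bases before the start site, and in Socs3 154 bases before it. The C/EBP match starts 45 bases before the start of C3 and 216 bases before that of Lcn2. The Gfap, Socs3 and Lcn2 windows lie inside the span of longer transcripts of the same genes.
Gfap, chr11:102897194-102897450: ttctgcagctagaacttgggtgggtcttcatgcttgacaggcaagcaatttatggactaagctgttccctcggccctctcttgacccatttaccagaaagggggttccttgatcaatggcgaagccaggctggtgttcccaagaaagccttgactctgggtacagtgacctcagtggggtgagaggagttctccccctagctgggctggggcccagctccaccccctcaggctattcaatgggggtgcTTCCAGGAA
Socs3, chr11:117969452-117969616: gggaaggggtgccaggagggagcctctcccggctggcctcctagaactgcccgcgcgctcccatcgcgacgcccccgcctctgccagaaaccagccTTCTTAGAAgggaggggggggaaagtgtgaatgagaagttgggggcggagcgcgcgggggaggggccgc
C3, chr17:57228137-57228386: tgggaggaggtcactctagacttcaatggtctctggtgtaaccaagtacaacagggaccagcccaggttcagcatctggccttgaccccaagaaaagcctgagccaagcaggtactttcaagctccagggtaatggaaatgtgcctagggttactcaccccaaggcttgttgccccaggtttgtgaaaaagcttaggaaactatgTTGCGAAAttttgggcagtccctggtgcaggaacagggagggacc
Lcn2, chr2:32387798-32387989: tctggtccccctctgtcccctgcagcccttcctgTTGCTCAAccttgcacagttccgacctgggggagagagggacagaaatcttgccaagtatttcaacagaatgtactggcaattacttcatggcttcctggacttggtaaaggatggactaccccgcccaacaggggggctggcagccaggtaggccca

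Lcn2 and Serpina3n, which code for secreted acute-phase proteins and are standard markers of reactive astrocytes, had the highest ratios among the members with reads in both libraries. Lcn2 encodes lipocalin 2, a carrier of iron-binding siderophores, and lies on chromosome 2 from 32384633 to 32388252, minus strand (ENSMUSG00000026822). It was at 33.4 FPKM in CKO (2049 reads) and 0.225 in WT (9 reads), 149-fold higher (78.2 to 326). In WT its level stood at percentile 33.2 of all listed genes and in CKO at percentile 96.9. Serpina3n encodes a serine protease inhibitor and lies on chromosome 12 from 104406729 to 104414329, plus strand (ENSMUSG00000021091). It was the most abundant member in CKO, at 66.6 FPKM (3212 reads) against 1.97 in WT (62 reads), 33.8-fold higher (26.3 to 44.3). Serpina3 genes are a family of similar copies, and reads could be divided among them. The other copies in the table were Serpina3g, with 16 reads in CKO, and Serpina3h, with 2, both with 0 in WT. The lipocalin 2 receptor gene Slc22a17 was at 26.9 and 22.3 FPKM, a ratio of 1.21 (1.104 to 1.32).

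The complement gene C3 was higher in CKO together with early components of the classical pathway. C3, the central component that all complement pathways cleave, lies on chromosome 17 from 57203970 to 57228136, minus strand (ENSMUSG00000024164). It was at 22.997 FPKM in CKO (2764 reads) and 0.739 in WT (58 reads), 31.1-fold higher (24.0 to 41.1). Of the 9 other measured complement genes 5 were higher and none lower, with a median log2 ratio of 1.201. C3 included, the median was 1.47 over the 10 measured genes and 0.15 over all 27 in the table, with 6 higher genes in both cases. That count could not fall, because dropping the filter only adds genes. C4b was at 29.0 and 1.77 FPKM, 16.4-fold higher (13.9 to 19.3); it is nearly identical to C4a, and the division of reads between them is uncertain. The C1q chain genes C1qa, C1qb and C1qc, which macrophages and microglia make, were 5.03-fold (3.36 to 7.82), 6.12-fold (3.65 to 11.0) and 4.04-fold (2.56 to 6.66) higher. Serping1, the inhibitor of C1, was 3.74-fold higher (3.23 to 4.35), at 22.1 and 5.92 FPKM. Clusterin, encoded by Clu, was the most abundant of the list at 482 and 585 FPKM. The receptor for the C3a fragment, C3ar1, named after its values were seen, had 23 and 5 reads.

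Gfap was higher in CKO, but the other filament genes of glia were not. Gfap, which encodes the intermediate filament of astrocytes and of reactive Müller glia, lies on chromosome 11 from 102887336 to 102900912, minus strand (ENSMUSG00000020932). It was at 20.2 FPKM in CKO (1993 reads) and 1.26 in WT (81 reads), 16.1-fold higher (12.9 to 20.3). It lies within the span of a long noncoding gene on the opposite strand, Gm26668, whose exons it does not share and which had 10 and 7 reads. Vim, the vimentin gene, which lens cells express strongly, was at 424 and 435 FPKM, a ratio of 0.974 (0.961 to 0.989). Synm, which encodes synemin, was at 38.5 and 54.8 FPKM. All 4 other measured filament genes lay within 2-fold. Cd44 encodes the hyaluronan receptor CD44, counted among the markers of reactive astrocytes, and lies on chromosome 2 from 102811141 to 102901665, minus strand (ENSMUSG00000005087). It was at 38.5 FPKM in CKO (6092 reads) and 39.0 in WT (4035 reads), a ratio of 0.986 (0.948 to 1.03). Cd44 was thus the most abundant member in WT, at percentile 97.0 of all listed genes, and the only one of the 10 whose counting interval included no difference.

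The wider lists of reactive astrocyte genes held other higher genes. Of the pan-reactive list, 5 genes are members here, and of the 6 others measured 2 were higher: Timp1, and Steap4, which encodes a metalloreductase, on 185 and 3 reads (40.3-fold, 13.6 to 197). The small heat shock protein gene Hspb1, abundant in lens at 1907 and 2429 FPKM, and Vim lay within 2-fold. Of the genes called A1 by others, named for astrocytes activated by inflammation, 3 of 5 measured genes besides C3 were higher and none lower. These were the class I gene H2-D1, 9.31-fold (7.82 to 11.2), Amigo2, which encodes a cell adhesion protein, 15.5-fold (8.71 to 30.3), and Serping1. Of the A2 genes, named for ischaemia, 3 of 5 measured were higher and none lower. Emp1, which encodes an epithelial membrane protein, was at 8.67 and 0.0331 FPKM on 1202 and 3 reads, 262-fold higher (89.4 to 1271). S100a10 was at 121 and 53.8 FPKM, and Tm4sf1 was 5.11-fold higher (3.44 to 7.87). B3gnt5, a glycosyltransferase gene, was at 38.8 and 75.8 FPKM. The median log2 ratios of the A1 list (C3 included) and the A2 list were 1.89 and 1.15 over the measured genes, but 0.41 and 0.36 over all genes in the table, and a difference between the lists was not tested. Without the filter the counts of higher genes were still 4 and 3, now of 12 genes in the table for each list. Dropping the filter can only add genes, so these counts could not fall.

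**Figure D3:**
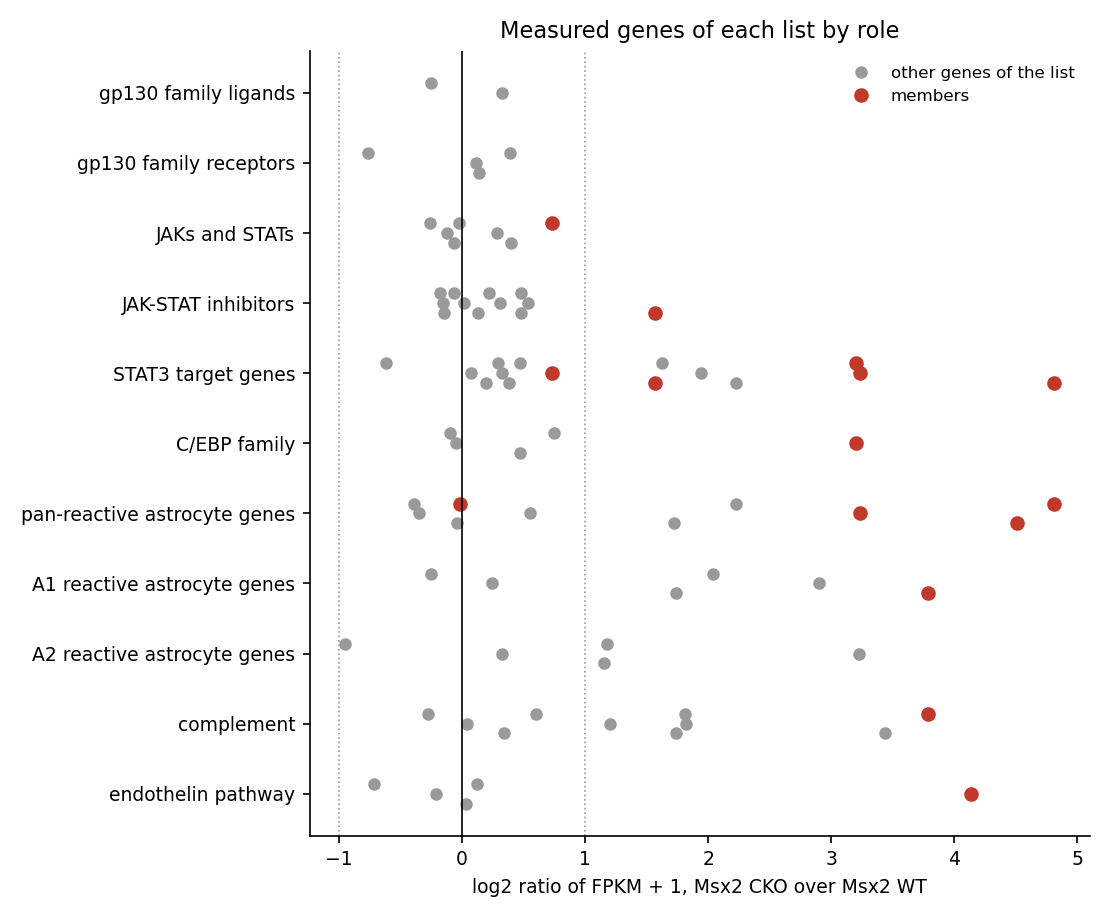
Log2 ratio of FPKM + 1 (CKO over WT) of the measured genes of each list, 1 point a gene, members in red; dotted lines mark 2-fold and the vertical offset only separates points. Ligands, receptors, JAK and STAT genes all lay inside the dotted lines, and members and other genes of the target, astrocyte and complement lists lay beyond them.

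Edn2 had no read in WT. It encodes endothelin 2, a peptide that damaged photoreceptors are known to release and that acts on endothelin receptors of Müller glia, and lies on chromosome 4 from 120161206 to 120167360, plus strand (ENSMUSG00000028635). It was at 16.6 FPKM in CKO on 568 reads and at 0 in WT, where a floor of 3 reads corresponds to 0.134 FPKM and the exact 95% upper limit of 0 reads to 0.165 FPKM. It was 124-fold higher against the floor of 3 reads, and the counting interval starts at 100.3. The other endothelin pathway genes lay within 2-fold where measured. The converting enzyme gene Ece1 was at 10.3 and 10.02 FPKM, a ratio of 1.03 (0.938 to 1.12). Mme, which encodes neprilysin, a peptidase that degrades endothelins, was at 6.31 and 11.0 FPKM. The receptor gene Ednrb, named after its values were seen, was at 1.22 and 1.57 FPKM. Edn1 had 17 and 5 reads and Edn3 19 and 11.

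Edn2, Gfap, Stat3 and Socs3 belong to a list of genes known from the LIF and FGF2 response of injured retina. Of its 7 genes in the table that are not members, only 4 were measured. Of these 4, 3 were higher and none lower, with a median log2 ratio of 1.32. Fgf2, a growth factor that protects photoreceptors, was at 2.20 and 0.241 FPKM and was measured only through its level in CKO. Egr1, an immediate early transcription factor gene, was 4.94-fold higher (3.53 to 7.09). The remaining higher gene was Junb, already counted among the STAT3 targets.

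The scaling between the libraries moves every plain ratio by the same factor. The log2 ratio of FPKM + 1 moves less at low levels: with library totals that of Osmr rose from 0.67 to 0.91. The deposited FPKM rest on effective libraries of 1.36 times the recovered reads in CKO and 0.735 times in WT. With library totals as the only scaling, the median over measured genes lay 0.70 higher on the log2 scale, and with totals without the crystallin genes 0.19 higher; the share of higher genes among those past 2-fold went from 66.6% to 95.9% and 78.4%. Under library totals Stat3 was 3.45-fold higher and passed the rule, which gave 8 higher members. Less the median of all measured genes under that scaling, its log2 ratio was 0.77. The direction of Cd44 depended on the scaling: its log2 ratio was -0.02 as deposited, 0.22 with totals without crystallins and 0.85 with library totals, or 0.17 less the median. The other 8 members were higher in CKO under each scaling. For the 7 past 2-fold this follows from the size of the shift, at most 0.89.

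**Figure D4:**
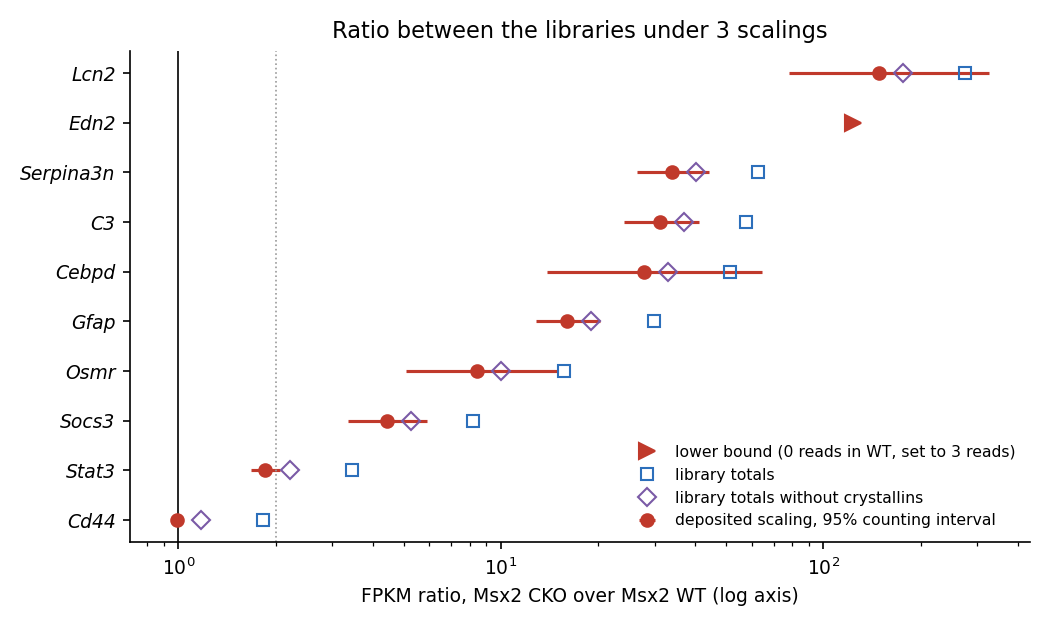
FPKM ratio of CKO over WT (log axis) for each gene with the deposited scaling (red, exact 95% counting interval; triangle, lower bound) and with 2 other scalings (open symbols); the dotted line marks 2-fold. Stat3 and Cd44 are the genes nearest to 1 under each scaling; the ratios are plain, so 2-fold here is not the FPKM + 1 rule.

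Markers of retinal cells differed between the same libraries, and their part in the ratios above was not tested. All 14 measured photoreceptor markers were higher in CKO, and none of the 15 in the table was at 0 in either library. Their summed level was 873 FPKM in CKO and 23.8 in WT, with Gnat1 at 164 and 3.55 FPKM and Rcvrn at 72.9 and 0.945. Of 10 measured markers of inner retinal neurons 6 were higher and none lower, with a summed level of 64.3 and 14.9 FPKM. Of 11 measured Müller glia markers 7 were higher and 1 lower, with a median log2 ratio of 1.31 and a summed level of 976 and 756 FPKM. Most of that sum came from Dkk3, at 433 and 527 FPKM, and Apoe, at 399 and 156, whereas Crym was at 7.53 and 0.251. Rlbp1, which encodes the retinaldehyde-binding protein of Müller glia and pigment epithelium, was at 10.6 FPKM (732 reads) and 0.976 (44 reads), 10.9-fold higher (8.01 to 15.1). Of 6 measured astrocyte markers 3 were higher, Gfap among them, and 2 lower, with a median log2 ratio of 0.95. Without Gfap, 2 of 5 were higher and 2 lower, with a median of 0.59. Their list had a summed level of 156 and 284 FPKM, most of it from Aldoc, at 105 and 223. Pax2, a gene of optic nerve head astrocytes named after its values were seen, had 3 reads in CKO and 0 in WT.

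Markers of other cell types were also read. Of 7 measured macrophage and microglia markers 6 were higher and none lower. Among the 6 were the C1q chain genes already counted with complement. The summed level over all 14 genes of the list was 41.6 FPKM in CKO and 8.48 in WT, with Cd74 at 9.23 and 1.11. Neutrophil markers, of interest for Lcn2, summed to 0.615 FPKM in CKO and 3.33 in WT over 8 genes. None of these was measured by the rule, and 5 of them, S100a8, Mpo, Elane, Ngp and Camp, had 0 reads in CKO. Cornea and conjunctiva markers summed to 343 and 24.3 FPKM, nearly all of it from Aldh3a1 and Lypd2, while 2 of 4 measured genes of that list were higher. Genes that mark the iris, ciliary body and pigment epithelium summed to 13.9 and 31.9 FPKM. Those of endothelium and pericytes summed to 16.0 and 16.2 FPKM, and 1 gene alone was at 14.2 in WT. Of 3 measured genes of that list 1 was higher and none lower, with a median log2 ratio of 0.36. Erythroid markers summed to 2.88 and 0.386 FPKM. Lens epithelium markers summed to 13848 and 37265 FPKM, nearly all of it from Cryab.

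**Figure D5:**
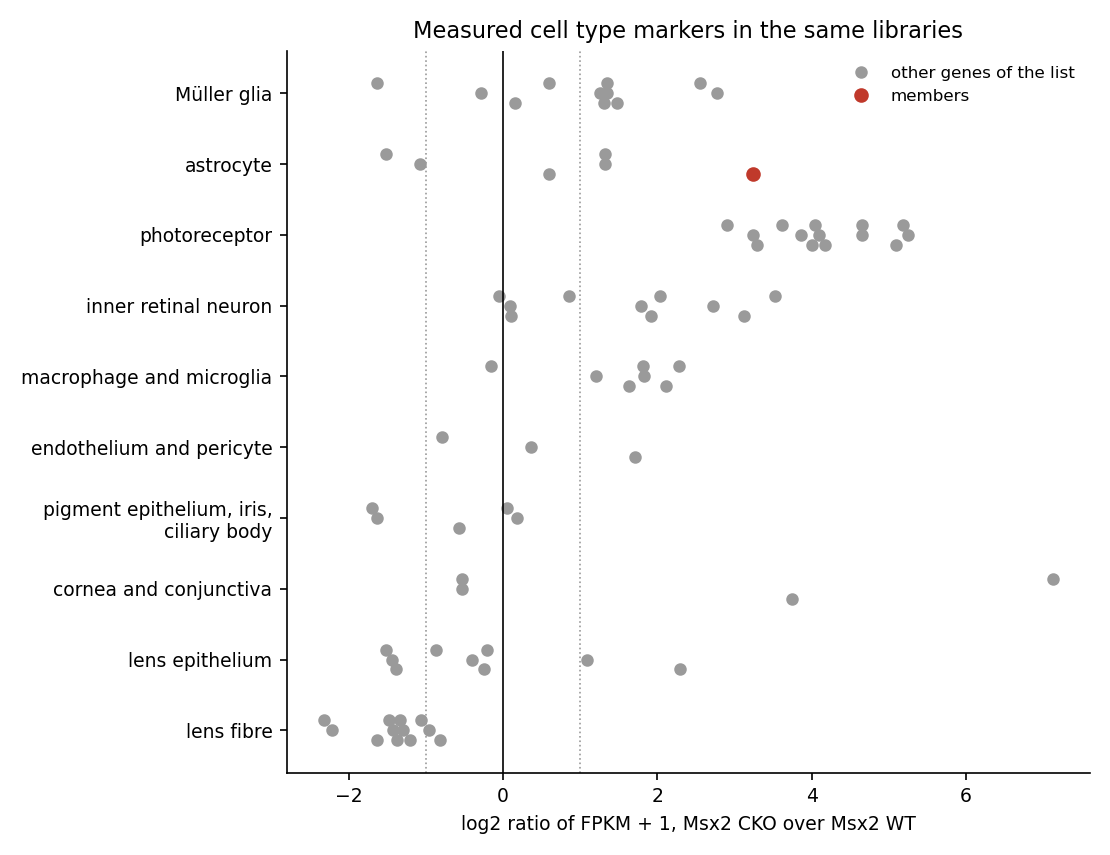
Log2 ratio of FPKM + 1 (CKO over WT) of the measured markers of each cell type, 1 point a gene, with Gfap in red; dotted lines mark 2-fold and the vertical offset only separates points. All 14 photoreceptor markers lay to the right of 2-fold, Müller glia markers lay on both sides of 0, and 10 of 12 lens fibre markers lay to the left of -1.

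Dividing a member's reads by those of a marker in the same library removes the scaling, and the ratio between the libraries can then be read relative to that marker. This was chosen after the data were seen. The result depended on the marker chosen. The summed reads of the 12 Müller glia markers in the table were 1.21-fold higher in CKO (1.19 to 1.22). They came mostly from Dkk3 and Apoe, so the sum mainly follows those genes and is not read as a measure of Müller glia. Relative to that sum, 8 of the 9 members with reads in both libraries were higher beyond counting error. Among them were Gfap, at 13.3 (10.7 to 16.9), Socs3, at 3.67 (2.79 to 4.90), and Stat3, at 1.54 (1.39 to 1.72), and Cd44 was lower, at 0.818 (0.785 to 0.853). Relative to Rlbp1 alone, one gene of that list, 4 of the 9 members with reads in both libraries were higher in CKO beyond counting error, 3 lower, and 2 not distinguishable from it. Lcn2 was 13.7-fold higher (6.55 to 32.0), Serpina3n 3.11-fold (2.05 to 4.70), C3 2.86-fold (1.87 to 4.35) and Cebpd 2.55-fold (1.17 to 6.33). Gfap had a relative ratio of 1.48 (0.990 to 2.18) and Osmr of 0.778 (0.420 to 1.51). Socs3, at 0.407 (0.264 to 0.623), Stat3 and Cd44 were lower. The summed reads of the 15 photoreceptor markers were 36.6-fold higher in CKO (34.8 to 38.6). Relative to them, Lcn2 alone of the 9 members with reads in both libraries was higher, by 4.06-fold (2.13 to 8.91). Serpina3n, at 0.924 (0.714 to 1.21), C3, at 0.850 (0.652 to 1.13), and Cebpd, at 0.756 (0.378 to 1.77), could not be told apart from the photoreceptor sum by counting error, and Gfap was lower at 0.439 (0.349 to 0.558). Edn2, with no read in WT, has no such ratio. The counting interval of its plain ratio starts at 100.3, above that of the photoreceptor sum, which ends at 38.6.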

How the data were processed

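Gene expression in lens was measured by mRNA sequencing, with 1 library per genotype. Per the submitters' processing notes the tools included DESeq2 1.10.1, STAR 2.5.1b and HTSeq 0.6.0, with no role given; no source used here states the genome build or the annotation. The deposited values were read as FPKM, from the values themselves: each value times its gene length was a whole multiple of 1 step per library (100% within 0.001 of a step), and the step was taken as 1 read. Identifiers matched GENCODE M21 on GRCm38 for 99.5% of genes, so coordinates are given on that build. Ratios are plain FPKM ratios with exact conditional binomial 95% intervals; the size rule was 2-fold on FPKM + 1 at a mean of 1 FPKM or more. A library with 0 reads was set to a floor of 3 reads. Ratios relative to marker reads have exact conditional odds-ratio intervals. Alternatives were another pseudocount, filters, scalings and a prior; scaling without crystallins kept the geometric mean of the library sizes. With 1 library per genotype no test was made and no p-value is given.

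The members and the 16 pathway and 12 marker lists were chosen with earlier results of these data known. Of each pathway list, the text names at most the 5 genes outside the members with the largest ratio past 2-fold and the 2 most abundant, and of each marker list at most 3; any gene of the ligand, receptor, JAK-STAT and inhibitor lists could be named. Rlbp1, the sex-linked genes, the overlapping genes, the low genes given by reads and markers at 0 were named after their values were seen. Calculations used Python 3.11.15 with numpy 2.4.6, pandas 2.3.3 and scipy 1.17.1. The interval and the size rule were tested on simulated reads with counting error only and known library sizes. That test could not cover variation between animals or a wrong scaling.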

Additional observations from a re-analysis of the deposited data

How the results depend on the processing

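The 7 higher members stayed past 2-fold, and no member was lower, under each alternative setting. These were a pseudocount of 0.1, no filter, a minimum of 10 reads, library totals, totals without crystallins, median-of-ratios scaling and a prior of 50 reads. Library totals added Stat3 (8 higher). Only median-of-ratios scaling and the prior could have taken a higher member below 2-fold. The smaller pseudocount and the scalings on totals raise ratios above 1. The filters leave ratios unchanged, and each higher member had more than 10 reads. Over all 10757 measured genes, library totals gave 2098 higher and 89 lower genes, and a pseudocount of 0.1 gave 489 lower. Of 76 measured pathway genes outside the members, 30 were higher with library totals and 17 with the deposited scaling. Over these settings the log2 ratio of Edn2 ran from 3.38 to 7.39 and that of Lcn2 from 4.80 to 6.69. Without a filter, as genes of low level entered, the list medians were 0.15 in place of 1.47 for complement, 0.41 in place of 1.89 for A1, 0.36 in place of 1.15 for A2, 0.61 in place of 1.14 for pan-reactive genes and -0.053 in place of 1.61 for cornea and conjunctiva; with a minimum of 10 reads the first 4 were 0.18, 0.57, 0.36 and 0.67. Relative to Rlbp1 the ratios of Socs3 and Osmr were 0.407 and 0.778; relative to the photoreceptor sum those of Serpina3n, C3, Gfap, Cebpd, Socs3 and Osmr were 0.924, 0.850, 0.439, 0.756, 0.121 and 0.231, and the cause was not tested; the photoreceptor sum was itself 36.6-fold higher in CKO. With 1 library per genotype no replicate could be left out. No paired analysis was possible because each genotype has a single library. Depth limits WT values on few reads, 8 for Cebpd and 9 for Lcn2.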

Other observations

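Partners of CD44 and of the lipocalins were read beside the members. Of 7 measured genes of hyaluronan metabolism and CD44 partners, 1 was higher in CKO: Msn, which encodes moesin, a linker of CD44 to actin, at 9.39 and 3.75 FPKM, 2.51-fold higher (2.23 to 2.82). Its relative Ezr, which encodes ezrin, was at 53.1 and 87.3 FPKM, and Adam10, whose protease cleaves CD44, at 20.0 and 29.0. The hyaluronan synthase genes Has1, Has2 and Has3 had 3, 5 and 23 reads in CKO and 3, 1 and 22 in WT. Spp1, which encodes the CD44 ligand osteopontin and was named after its values were seen, had 37 reads in CKO and 0 in WT. Less the median of all measured genes, the list's median log2 ratio was -0.37 as deposited and -0.34 with library totals. Ptgds, the lipocalin-type prostaglandin D synthase, was the most abundant lipocalin gene listed, at 102 and 140 FPKM, and Apod had 14 reads in CKO and 0 in WT.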
